A study of Mus musculus with 7 samples.

Results

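The transcripts of 36 genes of rod photoreceptors were followed in RNA sequencing libraries of sorted retinal microglia (rMG). The members were named by symbol as genes of the rod light response, the rod outer segment and the rod transcription factors. The rule itself uses no measured value, but the members were chosen with earlier results of these data known. They make up 36 of the 40743 genes listed in the deposited table. The study compared unlasered mice with mice after laser-induced choroidal neovascularisation (CNV), a model in which laser burns to the back of the eye rupture the membrane under the retinal pigment epithelium. There were 3 unlasered libraries and 4 lasered libraries, the latter taken 7 days after the laser. All 7 were labelled Irf8 KO, with the genotype Irf8-/- Cx3cr1GFP/+ on a C57BL/6J background free of the Crb1 mutation, a genotype that stands for germline loss of Irf8 and a GFP allele in place of 1 copy of Cx3cr1. Each library came from a pool of 3 to 4 mice and held about 10000 cells sorted as CD45low CD11b+ Cx3cr1GFP/+ Ly6C- Ly6G-. Sorting of lasered eyes was limited to the central 70% of the retina, so laser and retinal region cannot be told apart here. The age of the mice is not given in the labels.

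Rods are the sensory neurons for dim light and the most numerous cells of the mouse retina. In the rod outer segment, a stack of membrane discs, an activated visual pigment switches on the G protein transducin, transducin releases the inhibition of phosphodiesterase 6, the fall in cyclic GMP closes a cation channel, and the cell hyperpolarises. A kinase, arrestin and calcium sensors end the response, while guanylate cyclases restore cyclic GMP. Most of these genes are known for their expression in photoreceptors, whereas the G protein subunit encoded by Gnb1 is used by many cell types. Microglia of the retina lie mainly in the plexiform layers and can take up photoreceptor material. In bulk libraries of sorted cells, fewer rods or rod fragments and less rod RNA in each cannot be told apart.

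Unlasered libraries held from 20427558 to 36022954 reads and lasered ones from 37133297 to 45919042, so the lasered libraries were all deeper. Values are read counts scaled to a common library total (CPM), and a floor of 3 reads corresponded to 0.0653 to 0.147 CPM, covering counting error only. The 14 genes that define microglia or the sorting gate, such as Cx3cr1, Csf1r and Tmem119, summed to between 35673 and 43286 CPM in all 7 libraries, and limma called 0 of the 14 in either direction (3 at an unadjusted p under 0.05, 0 by edgeR, 1 by DESeq2, 0 by voom). Irf8 itself was read at 489 to 530 CPM in unlasered and at 463 to 582 CPM in lasered libraries, so the libraries are named by their label and the genotype was not checked by this gene.

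Promoter sequence is shown for 4 of the members, taken from RefSeq (GRCm38.p6) as the 250 bases before the start site. Whether promoter sequence bears on the difference between groups was not tested. Sag and Pdc fell after laser, Rbp3 varied most among unlasered libraries, and Gnb1 changed least. The windows are chr1:87803430-87803679 for Sag, chr1:150319167-150319416 for Pdc, chr14:33953753-33954002 for Rbp3 and chr4:155491111-155491360 for Gnb1, all on the plus strand. Capitals mark the motifs searched on both strands, TAATCC (the core bound by Crx), TGCTGA (a half-site of Nrl) and AGGTCA (a half-site of nuclear receptors such as Rorb and Nr2e3).
Sag: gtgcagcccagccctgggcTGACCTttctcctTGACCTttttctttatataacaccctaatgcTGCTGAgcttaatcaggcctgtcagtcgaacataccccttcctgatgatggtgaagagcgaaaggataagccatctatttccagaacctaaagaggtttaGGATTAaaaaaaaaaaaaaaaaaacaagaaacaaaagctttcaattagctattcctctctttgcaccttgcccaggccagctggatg
Pdc: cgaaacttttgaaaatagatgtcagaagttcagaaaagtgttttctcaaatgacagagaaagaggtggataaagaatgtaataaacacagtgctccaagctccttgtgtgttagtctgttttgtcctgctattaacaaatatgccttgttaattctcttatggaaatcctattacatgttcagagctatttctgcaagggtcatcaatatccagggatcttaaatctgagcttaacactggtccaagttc
Rbp3: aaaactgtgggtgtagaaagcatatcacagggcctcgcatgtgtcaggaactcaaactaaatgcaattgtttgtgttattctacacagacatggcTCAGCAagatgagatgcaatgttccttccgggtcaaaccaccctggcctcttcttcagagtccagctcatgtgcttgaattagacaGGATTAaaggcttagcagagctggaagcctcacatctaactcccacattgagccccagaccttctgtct
Gnb1: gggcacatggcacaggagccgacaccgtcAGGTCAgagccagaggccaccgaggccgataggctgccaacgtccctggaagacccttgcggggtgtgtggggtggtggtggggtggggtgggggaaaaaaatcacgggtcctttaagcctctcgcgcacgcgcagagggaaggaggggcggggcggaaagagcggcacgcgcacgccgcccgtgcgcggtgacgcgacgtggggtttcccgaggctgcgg
The Sag window held all 3 motifs, with TAATCC in reverse at 87 bases, TGCTGA at 187 bases and AGGTCA in reverse at 231 and 218 bases before the start site. The Rbp3 window held TAATCC in reverse at 69 bases and TGCTGA in reverse at 155 bases. The Gnb1 window held AGGTCA at 221 bases, and the Pdc window held none of these letters. Over 27025 genes with a window of this length, TAATCC was present in 7.21%, TGCTGA in 18.0% and AGGTCA in 15.8%. Windows were matched for 28 of the 36 members, under 80%, so a share over the members is void and none is given.

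RNA of the rod genes was present in every library and was lower in the lasered than in the unlasered group. Summed over the 36 members, the level was 2608, 19952 and 5739.6 CPM in unlasered libraries 1, 2 and 3. It was 1339.7, 781, 1065 and 601 CPM in lasered libraries 1 to 4. The groups did not overlap, and the lowest unlasered library was 1.95-fold above the highest lasered library. The unlasered mean was 9433 ± 9243 CPM (SD, n = 3) and the lasered mean 947 ± 324 CPM (SD, n = 4), a 9.96-fold difference that was 4.41-fold without unlasered library 2. Rod genes took from 0.261% to 1.995% of all reads of an unlasered library and from 0.0601% to 0.134% of a lasered one.

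All 36 members were tested, and the log2 difference was negative for each of them. With limma on log2(CPM + 1), 29 of 36 members were lower after laser at an adjusted p under 0.05, against 3.07% of the 17496 genes tested. Without the filter on low values 0 of 36 were called lower (35 at an unadjusted p under 0.05), against 0.53% of the 40743 genes then tested. The lowest adjusted p of a member by limma was 0.0503 there. In the other direction 0 of 36 were called, against 3.86% of all genes tested, and the count of higher members was also 0 at an unadjusted p under 0.05 and by edgeR, DESeq2 and voom. Every lasered library lay below every unlasered library for 31 of 36 members, against 10.7% of all genes tested. The median difference of the members was -3.15 on the log2 scale, beside -0.01 over all genes tested. Without unlasered library 2 it was -2.40, over 35 members, since Cabp4 no longer passed the filter. All 36 members reached 1 CPM in each of the 3 unlasered libraries, but 5 of them (Grk1, Gucy2e, Gucy2f, Impg2 and Cabp4) would not have been tested on their lasered values alone. Of these 5, Grk1, Gucy2f and Cabp4 are among the 29 called, and 26 of the other 31 members were called. Without lasered library 2 the count of lower members was 5, without lasered library 3 it was 12 and without lasered library 4 it was 19, while all genes called lower fell from 537 to 114, 158 and 259. With each of the 7 libraries left out in turn, Gngt1, Pde6g, Rcvrn, Guca1b and Rorb were called in all fits. In 5 or 6 of these fits 7 of the 29 lost the call (Pde6b, Cnga1, Slc24a1, Grk1 and Rp1 in 5, Gnat1 and Rpgrip1 in 6). Cabp4, also among the 29, was tested in only 4 of the fits and called in 1. It was not tested when an unlasered library was left out. No log2 difference of a member changed sign in any of these fits.

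**Figure D1:**
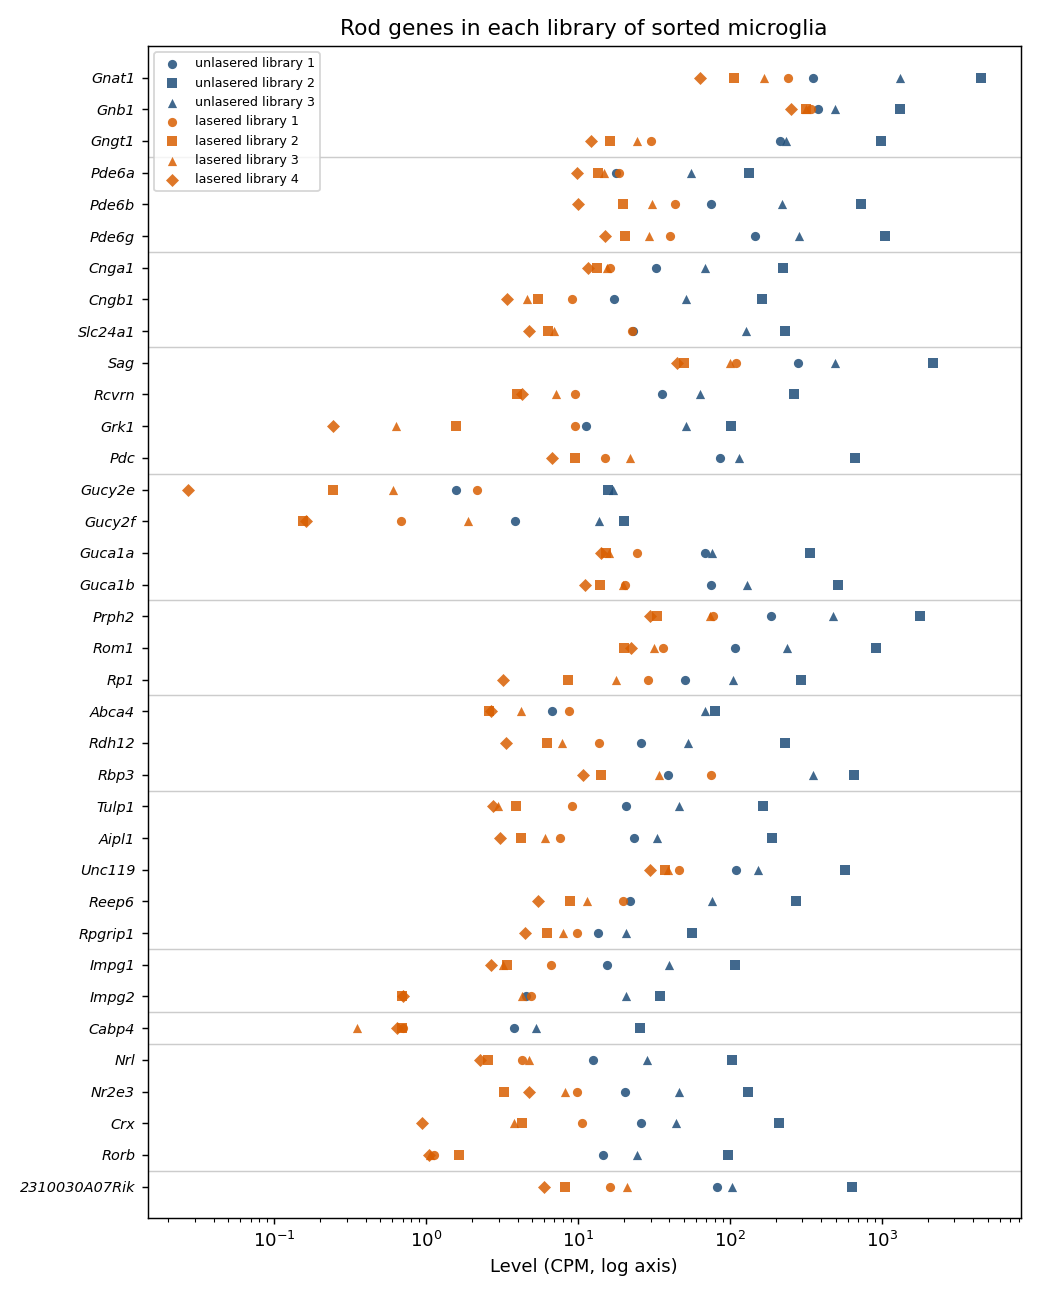
Level of each member in each library (CPM, log axis), in the order of their roles, with grey lines between roles; blue symbols are the 3 unlasered and orange symbols the 4 lasered libraries. Unlasered library 2 (square) is the highest unlasered value for 35 of 36 members, and the groups overlap for Pde6a, Gucy2e, Abca4, Rbp3 and Impg2.

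Of the 3 subunits of transducin, the G protein of the light response, 2 passed. Gnat1, the rod transducin alpha subunit (ENSMUSG00000034837, chromosome 9, 107674474 to 107679712), was read at 354, 4479.8 and 1319 CPM in unlasered libraries and at 240.3, 106, 168 and 63.2 CPM in lasered libraries. The groups did not overlap, and the level in unlasered library 2 ranked Gnat1 11 among all genes of that library, against 3098 in lasered library 4. Gnat1 fell by 3.31 ± 0.75 on the log2 scale (SE, adjusted p = 0.0359). Without unlasered library 2 its difference was -2.40 (adjusted p = 0.0631), and the call held only without unlasered library 1, with limma's adjusted p from 0.0128 to 0.0946 over the 7 fits. Gngt1, the rod gamma subunit (ENSMUSG00000029663, chromosome 6, 3993792 to 3997436), had the largest difference of the members on the log2(CPM + 1) scale, but not with a pseudocount of 0.1, where Grk1 was at -4.79 and Gngt1 at -4.22. It had 215, 986 and 233 CPM in unlasered and 30.4, 16.3, 24.4 and 12.2 CPM in lasered libraries, a fall of 4.15 ± 0.51 (SE, adjusted p = 0.00611), with the lowest unlasered library 7.08-fold above the highest lasered library. Gnb1, the beta subunit that rods share with many other cells (ENSMUSG00000029064, chromosome 4, 155491361 to 155559269), stood apart. Its levels were 381, 1321 and 495 CPM in unlasered and 339, 315, 318 and 253 CPM in lasered libraries. The groups did not overlap, but the difference of -1.05 ± 0.36 (SE, adjusted p = 0.121) did not pass.

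Of the 3 subunits of phosphodiesterase 6, the enzyme that breaks down cyclic GMP, 2 passed. Pde6b, a catalytic subunit, had 74.6, 727 and 221 CPM in unlasered and 43.6, 19.8, 30.5 and 9.94 CPM in lasered libraries, and fell by 3.28 ± 0.71 (SE, adjusted p = 0.0302). Pde6g, the inhibitory subunit, had 146, 1043 and 283 CPM against 40.5, 20.5, 29.2 and 15.2 CPM, and fell by 3.78 ± 0.58 (SE, adjusted p = 0.0110). In both, unlasered library 2 was highest and the groups were separate. Pde6a, the other catalytic subunit, had 17.9, 134 and 55.0 CPM against 18.6, 13.5, 14.8 and 9.78 CPM. Here lasered library 1 lay above unlasered library 1, and the difference of -1.82 ± 0.55 (SE, adjusted p = 0.0836) did not pass.

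The channel that cyclic GMP holds open and the exchanger that extrudes calcium were lower after laser, 3 of 3 passing. Cnga1, the alpha subunit of the channel, was at 32.7, 222 and 68.2 CPM in unlasered and at 16.3, 13.4, 15.5 and 11.7 CPM in lasered libraries, so that the lasered values were close together while the unlasered values spread 6.78-fold. Its difference was -2.41 ± 0.51 (SE, adjusted p = 0.0295). Cngb1, the beta subunit, fell by 3.08 ± 0.62 (SE, adjusted p = 0.0252). The exchanger gene Slc24a1 fell by 3.24 ± 0.73 (SE, adjusted p = 0.0355), but its lowest unlasered value of 23.0 CPM hardly exceeded the highest lasered value of 22.7 CPM, and lasered library 1 stood far above the other lasered libraries at 4.77 to 6.90 CPM.

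All 4 genes that end the light response or regulate its recovery were lower. Sag, rod arrestin (ENSMUSG00000056055, chromosome 1, 87803680 to 87845158), had 279, 2161 and 490.4 CPM in unlasered and 109.6, 50.1, 100.6 and 44.6 CPM in lasered libraries. It fell by 3.22 ± 0.62 (SE, adjusted p = 0.0216). Rcvrn, the calcium sensor recoverin, had 35.5, 262 and 63.9 CPM against 9.61, 3.96, 7.21 and 4.31 CPM, a fall of 3.63 ± 0.59 (SE, adjusted p = 0.0122). Unlasered library 2 was again the highest for both. Grk1, the kinase of the visual pigment, had 11.3, 102 and 51.4 CPM against 9.52, 1.58, 0.631 and 0.242 CPM. The spread within lasered libraries was 39.3-fold for Grk1, against 2.42-fold for Rcvrn, and its fall of 3.89 ± 0.83 (SE, adjusted p = 0.0300) carried the second largest error of the members. Grk1 too was tested only through its unlasered values. Pdc, phosducin, which binds the beta and gamma subunits of transducin, fell by 3.84 ± 0.65 (SE, adjusted p = 0.0146).

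The listed antisense RNA 2310030A07Rik (ENSMUSG00000099447, chromosome 1, 150320681 to 150346771, minus strand) lies across Pdc (ENSMUSG00000006007, chromosome 1, 150319417 to 150333906, plus strand), with no exonic bases in common. Its reads numbered 1676, 21810 and 3717 in unlasered libraries, beside 1752, 22865 and 4103 for Pdc. In lasered libraries they numbered 720, 370, 964 and 223, beside 660, 429, 1005 and 251 for Pdc. The ratio of the 2 stayed between 0.862 and 1.09 over all 7 libraries, although the reads of either gene ranged widely. The library kit does not mark strand, and whether reads of Pdc were counted for 2310030A07Rik was not tested. The difference of 2310030A07Rik was -3.82 ± 0.68 (SE, adjusted p = 0.0163). Without it 28 of 35 members were called lower.

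Among the enzymes that restore cyclic GMP and their calcium-binding activators, 3 of 4 passed. The activators Guca1a and Guca1b, neighbours on chromosome 17, had differences of -2.76 ± 0.49 (SE, adjusted p = 0.0166) and -3.36 ± 0.55 (SE, adjusted p = 0.0129). Guca1b had 75.1, 516 and 129 CPM in unlasered and 20.3, 13.9, 19.7 and 11.1 CPM in lasered libraries, the latter spreading 1.82-fold. The cyclases were low, above all in lasered libraries. Gucy2f had 3.87, 20.0 and 13.8 CPM against 0.680, 0.156, 1.89 and 0.162 CPM and fell by 2.85 ± 0.51 (SE, adjusted p = 0.0165), but was tested only through its unlasered values. Gucy2e had 1.57, 15.8 and 16.9 CPM against 2.18, 0.245, 0.610 and 0.0269 CPM, the last being 1 read and under the floor. Lasered library 1 lay above unlasered library 1 for Gucy2e, and its difference of -2.52 ± 0.67 (SE, adjusted p = 0.0566) did not pass. It was also the single member whose highest unlasered value was not in library 2.

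The structural genes of discs and axoneme were lower, 3 of 3 passing. Prph2, the disc rim protein peripherin 2 (ENSMUSG00000023978, chromosome 17, 46910459 to 46924933), had 186, 1786 and 479 CPM in unlasered and 77.2, 33.2, 74.3 and 29.9 CPM in lasered libraries, a fall of 3.44 ± 0.67 (SE, adjusted p = 0.0221). Its partner Rom1 had 108, 919 and 236 CPM against 36.3, 20.1, 31.6 and 22.2 CPM, a fall of 3.37 ± 0.59 (SE, adjusted p = 0.0160). The 2 partners followed the same order of unlasered libraries and were separate between groups. Rp1, a microtubule protein of the axoneme, fell by 3.25 ± 0.71 (SE, adjusted p = 0.0318), and its lasered values spread from 3.23 to 29.1 CPM.

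Genes that handle retinoids were the least separated of the roles with more than 2 members, and 1 of 3 passed. Rbp3, the retinoid-binding protein of the space around photoreceptors (ENSMUSG00000041534, chromosome 14, 33954003 to 33964216), had 39.3, 651 and 350 CPM in unlasered and 75.4, 14.2, 34.2 and 10.8 CPM in lasered libraries. Lasered library 1 exceeded unlasered library 1, and the difference of -2.99 ± 0.93 (SE, adjusted p = 0.0924) had the largest error of all members. Abca4, the transporter that clears retinoid adducts from discs, had 6.71, 80.1 and 68.6 CPM against 8.72, 2.61, 4.20 and 2.69 CPM. It showed the same overlap, with a difference of -2.79 ± 0.75 (SE, adjusted p = 0.0599). Rdh12, a retinal reductase of the inner segment, fell by 3.12 ± 0.66 (SE, adjusted p = 0.0289), from 26.1, 229 and 52.9 CPM to 13.7, 6.26, 7.88 and 3.37 CPM.

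Of 5 genes for protein transport, the cilium and chaperones, 4 passed. Unc119, which carries lipid-modified proteins such as transducin alpha, had 109.5, 572 and 152 CPM in unlasered and 46.4, 37.6, 39.1 and 29.7 CPM in lasered libraries, a fall of 2.46 ± 0.47 (SE, adjusted p = 0.0215). Aipl1, the chaperone of phosphodiesterase 6, fell by 3.17 ± 0.62 (SE, adjusted p = 0.0224), and Tulp1, a trafficking protein, fell by 3.42 ± 0.62 (SE, adjusted p = 0.0172). Rpgrip1, which anchors a regulator at the connecting cilium, fell by 1.73 ± 0.43 (SE, adjusted p = 0.0461). Its exons share 1057 bases with Supt16 on the other strand, and Supt16 was read at 40.8, 26.3 and 46.3 CPM in unlasered and at 25.2 to 44.9 CPM in lasered libraries, and reads of the shared stretch cannot be told apart. Reep6, a membrane-trafficking protein, had separate groups, with 22.0 CPM as the lowest unlasered and 19.9 CPM as the highest lasered value, and a difference of -2.80 ± 0.72 (SE, adjusted p = 0.0509) that just missed the threshold.

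Of the 2 matrix genes 1 passed, as did the 1 synapse gene. Impg1, a proteoglycan of the matrix around outer segments, had 15.6, 107 and 39.8 CPM in unlasered and 6.64, 3.41, 3.22 and 2.69 CPM in lasered libraries, and fell by 3.13 ± 0.54 (SE, adjusted p = 0.0158). Impg2, its relative, ranged from 4.55 to 34.4 CPM and from 0.690 to 4.92 CPM with overlap, and its difference of -2.39 ± 0.68 (SE, adjusted p = 0.0701) did not pass. Cabp4, a calcium-binding protein of the photoreceptor synapse, had 3.77, 25.4 and 5.27 CPM in unlasered and 0.702, 0.690, 0.348 and 0.646 CPM in lasered libraries. Cabp4 fell by 2.54 ± 0.51 (SE, adjusted p = 0.0241), shares 131 exonic bases with Gpr152 on the other strand and was tested only through its unlasered values. With 1 lasered library left out at a time, its call held in 1 of 4 fits, the one without lasered library 4. With an unlasered library left out, Cabp4 was not tested.

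All 4 transcription factors passed. Rorb, a nuclear receptor that acts early in rod development (ENSMUSG00000036192, chromosome 19, 18930605 to 19111196), had 14.7, 96.6 and 24.6 CPM in unlasered and 1.13, 1.65, 1.07 and 1.05 CPM in lasered libraries. Rorb had the largest fold between group means of the members, 37.0-fold, which was 16.0-fold without unlasered library 2, and fell by 3.94 ± 0.52 (SE, adjusted p = 0.00742). Crx, the homeobox factor of photoreceptors, had 26.04, 209.6 and 44.3 CPM against 10.6, 4.30, 3.79 and 0.943 CPM, a fall of 3.70 ± 0.73 (SE, adjusted p = 0.0231). Both groups of libraries were separate for these 2 genes, and the lasered values of Crx spread 11.2-fold where those of Rorb spread 1.57-fold. Nrl, the factor that sets rod fate, had 12.5, 103 and 28.5 CPM against 4.30, 2.56, 4.79 and 2.26 CPM and fell by 2.99 ± 0.58 (SE, adjusted p = 0.0218). Its target Nr2e3, a repressor of cone genes, had 20.5, 131 and 46.1 CPM against 9.88, 3.25, 8.19 and 4.74 CPM and fell by 2.86 ± 0.56 (SE, adjusted p = 0.0223).

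**Figure D2:**
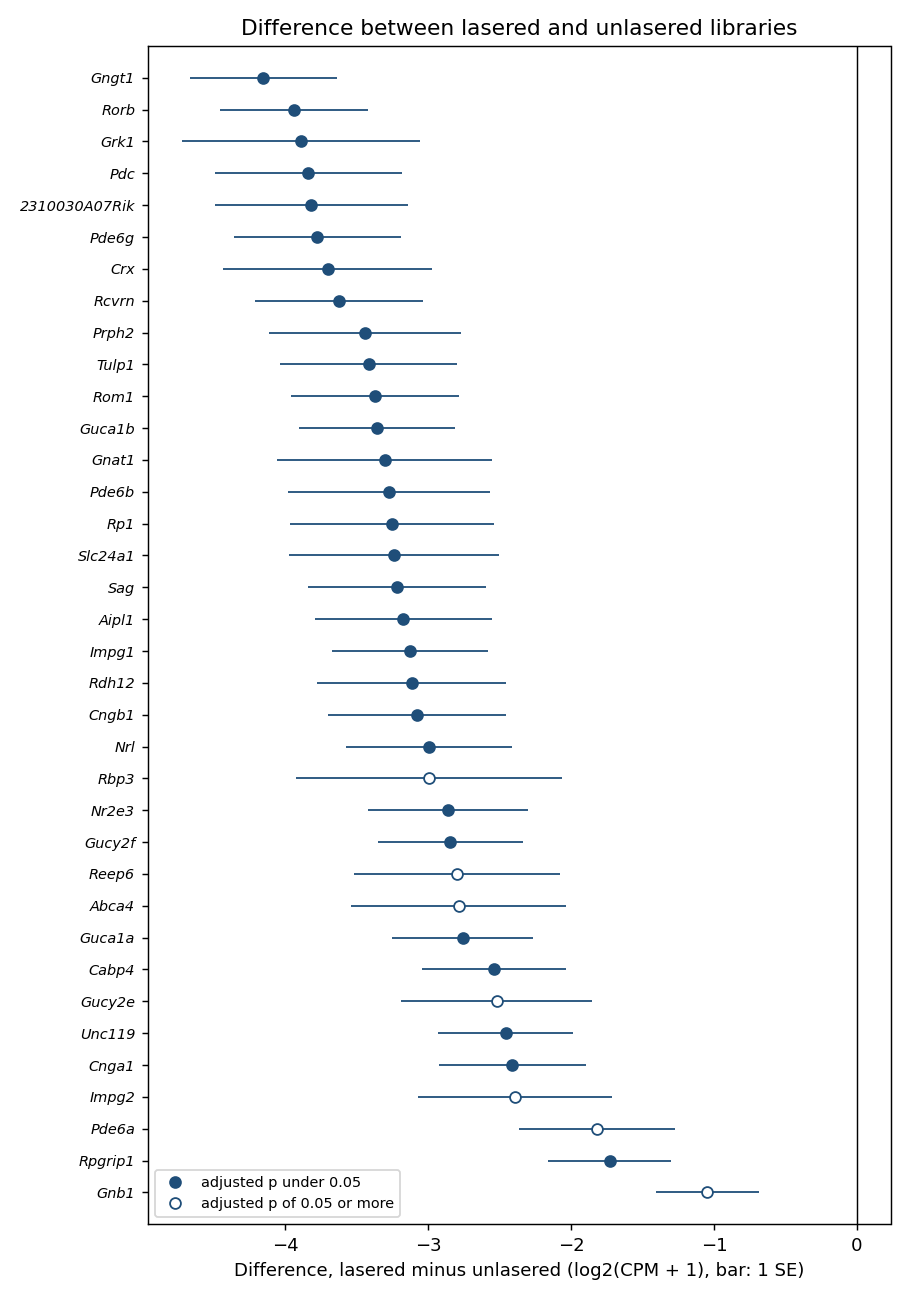
Difference between lasered and unlasered libraries for each member on the log2(CPM + 1) scale, with 1 SE, sorted by size; filled points passed an adjusted p under 0.05. All 36 points lie below 0, from -4.15 for Gngt1 to -1.05 for Gnb1, and 7 are open.

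The members differed in level per length. Divided by exonic length, Gnat1 had the highest mean among unlasered libraries, 677 CPM per kb, followed by 2310030A07Rik at 449, Rom1 at 278, Prph2 at 272 and Pde6g at 212 CPM per kb, while Gucy2e had the lowest at 1.24 CPM per kb. Unlasered library 2 weighs most in these means, and the order differed between libraries. In unlasered library 1, 2310030A07Rik (135 CPM per kb) lay above Gnat1 (117 CPM per kb), and in unlasered library 3 Cabp4 had the lowest level, 1.499 CPM per kb. The SD of each of these means was of the size of the mean (2158 CPM around 2051 CPM for Gnat1). Most members shared the order of libraries behind this spread, so the SD does not decide the order of neighbours. In all 3 unlasered libraries 2310030A07Rik (135, 1044 and 169 CPM per kb) lay above Rom1 (71.4, 606 and 156 CPM per kb). Rom1 lay above Prph2 in libraries 1 and 2 (61.8 and 595 CPM per kb for Prph2) but not in library 3 (160 CPM per kb). In lasered libraries Gnb1 had the highest mean, 71.8 CPM per kb, ahead of Gnat1 at 47.7 CPM per kb, though in lasered library 1 both were near 79 CPM per kb (79.5 and 79.3). The share of Gnb1 in the summed members was 14.6%, 6.62% and 8.62% in unlasered and 25.3%, 40.3%, 29.9% and 42.0% in lasered libraries, with separate groups. Without Gnb1 the sum of the members differed 13.6-fold between group means, and 5.83-fold when unlasered library 2 was left out as well. The share of Gngt1 went the other way, from 8.24%, 4.94% and 4.06% to 2.27%, 2.09%, 2.29% and 2.04%. Gnat1 kept overlapping shares, 13.6% to 23.0% in unlasered and 10.5% to 17.9% in lasered libraries.

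Within each group the libraries differed by large factors, and in a fixed order for most members. The order library 2, library 3, library 1 from high to low held for 35 of 36 members among unlasered libraries, and unlasered library 1 was the lowest for all 36. Library 2 exceeded library 1 by a median of 7.75-fold, from 3.47-fold for Gnb1 to 16.6-fold for Rbp3. Among lasered libraries, library 1 was the highest for 31 members and library 4 the lowest for 29. For the 35 members with more than 3 reads in every lasered library, the median spread among lasered libraries was 2.67-fold, from 1.34-fold for Gnb1 to 39.3-fold for Grk1. Gucy2e, with 1 read in lasered library 4, was left out of this range.

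Library 3 departed from library 1 by very unequal factors. The ratio of unlasered library 3 to library 1 had a median of 2.14 and ran from 1.08 for Gngt1 to 10.8 for Gucy2e, with Abca4 at 10.2, Rbp3 at 8.90 and Slc24a1 at 5.51. Members with longer exonic sequence tended to be relatively higher in library 3. Between the log2 ratio of library 2 to library 3 and exonic length, Spearman's rho was -0.64 over the 36 members, and -0.37 over 17458 tested genes with a known length. For library 3 over library 1 it was 0.41 over the members and 0.33 over all genes. These are correlations across genes that share the same libraries, and genes are not independent replicates. For the lasered libraries 1 and 4 rho was 0.15 over the members and 0.09 over all genes. Of the 7 members that did not pass, 6 (Gnb1, Pde6a, Gucy2e, Abca4, Rbp3 and Impg2) had at least 3 kb of exonic sequence, as did 27 of all 36 members. The part of transcript length in these results was not tested.

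**Figure D3:**
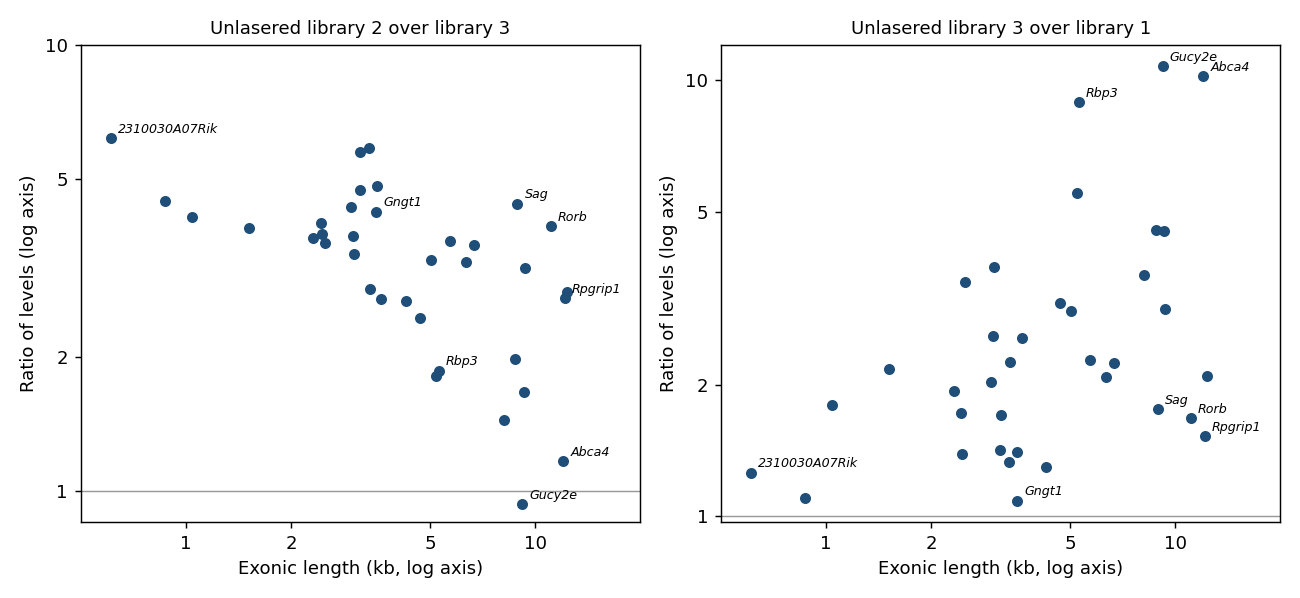
Ratio of levels between unlasered libraries (library 2 over 3 on the left, library 3 over 1 on the right, log axis) against exonic length (kb, log axis), with 1 point for each member. On the left the points fall with length, down to 0.938 for Gucy2e; on the right Gucy2e, Abca4 and Rbp3 stand highest, at 10.8, 10.2 and 8.90.

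Of 34 further genes expressed in photoreceptors, 33 were listed and 32 tested, and limma called 15 lower, against 3.07% of all genes tested, and 0 higher (0 higher also at an unadjusted p under 0.05, by edgeR, by DESeq2 and by voom). The difference was negative for 31 of the 32, with a median of -2.54 on the log2 scale and a range from -3.60 to 0.31. Of the 32 tested, 7 reached 1 CPM in fewer than 3 lasered libraries and so were tested only through their unlasered values, among them 4 of the 15 called (Nxnl2, Esrrb, Drd4 and Lrit1). Kcnv2, a modulatory potassium channel subunit of photoreceptors, had 15.8, 124 and 52.2 CPM in unlasered and 5.91, 1.51, 2.16 and 3.45 CPM in lasered libraries, a fall of 3.60 (adjusted p = 0.0141). Elovl4, an elongase for very long fatty acids of the discs, fell by 3.25 (adjusted p = 0.0198) and Nxnl1, the gene of rod-derived cone viability factor, fell by 3.32 (adjusted p = 0.0144). Among the others that passed were Gnb5, Rd3, Prcd, Cacna2d4, Nxnl2, Ankrd33, Esrrb, Mak, Drd4, Stx3 and Lrit1.

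Cone genes differed among themselves in how they varied over the unlasered libraries. Where all 36 members were higher in unlasered library 3 than in library 1, 5 of 13 cone genes were (Opn1sw, Gnat2, Gnb3, Pde6c and Thrb). Gnat2, the cone transducin alpha subunit, was 2.99-fold and Pde6c, a cone phosphodiesterase subunit, 2.40-fold higher there, beside 2.20-fold for the sum of the rod genes. These were the 2 largest ratios of the cone genes, and each rested on 22 reads in unlasered library 1. Thrb was at 1.78-fold, Gnb3 at 1.24-fold and Opn1sw at 1.03-fold, and the other 8 cone genes were at 0.300-fold to 0.825-fold. Opn1sw, the short-wave cone pigment, was read at 1.08, 435 and 1.11 CPM in unlasered and at 10.7, 1.43, 0.784 and 0.673 CPM in lasered libraries, so that unlasered library 2 alone was high. Opn1mw, the middle-wave pigment, had 3.97, 30.8 and 1.55 CPM against 1.31, 1.002, 1.503 and 0.808 CPM. Of 11 cone genes tested, limma called 0 in either direction. At an unadjusted p under 0.05, 7 were lower, against 11.6% of all genes tested. The lower calls were 1 by edgeR (3.45% of all genes), 4 by DESeq2 (6.52%) and 1 by voom (2.34%). Of the 11, 4 reached 1 CPM in fewer than 3 lasered libraries and so were tested only through their unlasered values. Gngt2 and Pde6h, which are listed as cone genes, were read at 239 to 356 CPM and at 185 to 302 CPM in all libraries.

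The inner neurons and the pigment epithelium had low summed levels, and the Mueller glia genes higher ones. The sums of 10 bipolar cell genes were 25.7 to 52.5 CPM in unlasered and 42.6 to 56.9 CPM in lasered libraries, and those of 12 amacrine and horizontal cell genes 9.80 to 23.9 CPM and 5.12 to 16.5 CPM. The 8 ganglion cell genes summed to 12.9 to 19.8 CPM and 13.4 to 20.4 CPM, and the 10 genes of the retinal pigment epithelium to 33.3 to 39.7 CPM and 33.8 to 38.3 CPM. Rpe65, a defining marker of the pigment epithelium, was at 0.0227 to 0.343 CPM over all libraries. By limma, 1 amacrine gene, Pax6, was called lower (difference -0.88, adjusted p = 0.0497), and it was called by DESeq2 (as was Slc6a9, a glycine transporter) but not by edgeR, by voom or with median-of-ratios scaling. Of the 5 bipolar, 3 ganglion and 4 pigment epithelium genes that could be tested, 0 were called by limma, edgeR, DESeq2 or voom. At an unadjusted p under 0.05, 0, 0 and 1 passed, the last being Pmel, which was higher after laser (difference 0.59). The 10 Mueller glia genes summed to 735 to 957 CPM and 287 to 606 CPM, so that the sums of the groups did not overlap. Of 6 tested, limma called 1 lower, Dkk3, against 3.07% of all genes tested, with a fall of 0.91 (adjusted p = 0.0138). At an unadjusted p under 0.05, 3 were lower (Dkk3, Slc1a3 and Car2), against 11.6% of all genes. Glul had 149 to 189 CPM and 124 to 194 CPM. Slc1a3, a glutamate transporter, made up most of the Mueller sum in unlasered library 1, with 579.9, 197 and 386 CPM in unlasered and 139, 270.2, 15.5 and 65.7 CPM in lasered libraries, and its difference of -2.14 (adjusted p = 0.155) did not pass. Nor did that of Car2, a carbonic anhydrase (difference -1.33, adjusted p = 0.189). The part of rods, cones or glia carried through the sort in the difference between groups was not tested.

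**Figure D4:**
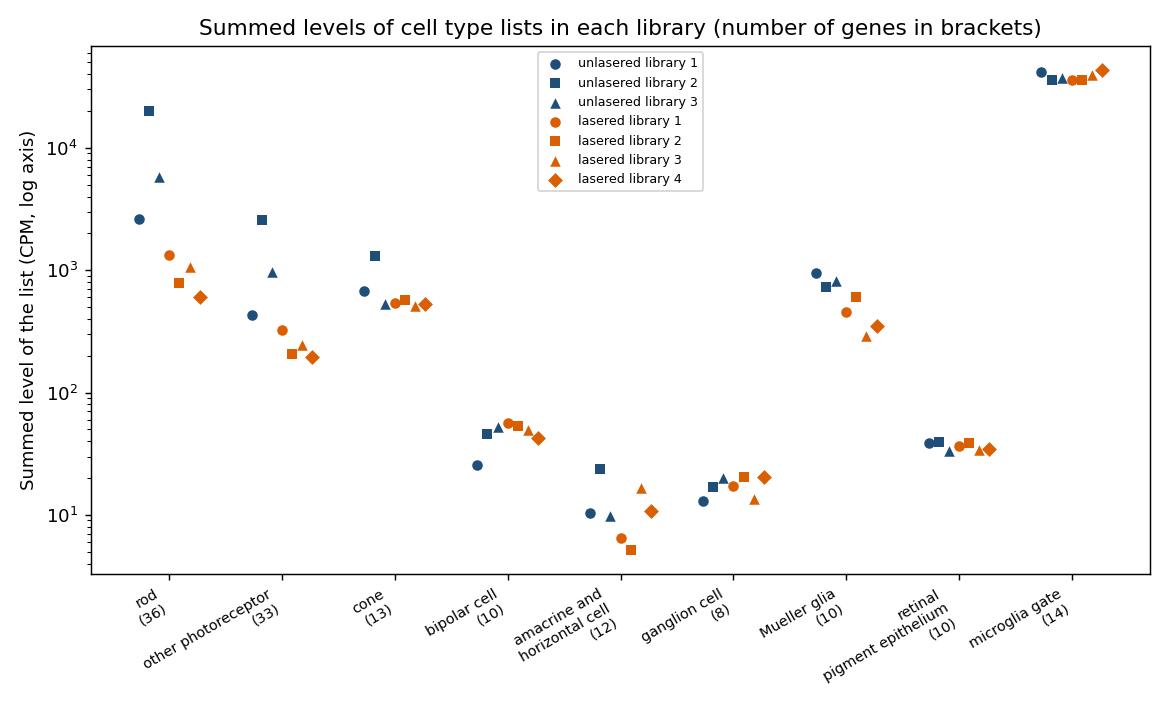
Summed level of each cell type list in each library (CPM, log axis), with the number of genes in brackets; blue symbols are unlasered and orange symbols lasered libraries. Rod genes lie between 601 and 19952 CPM and are separate between groups, whereas the microglia genes lie between 35673 and 43286 CPM in all libraries.

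**Figure D5:**
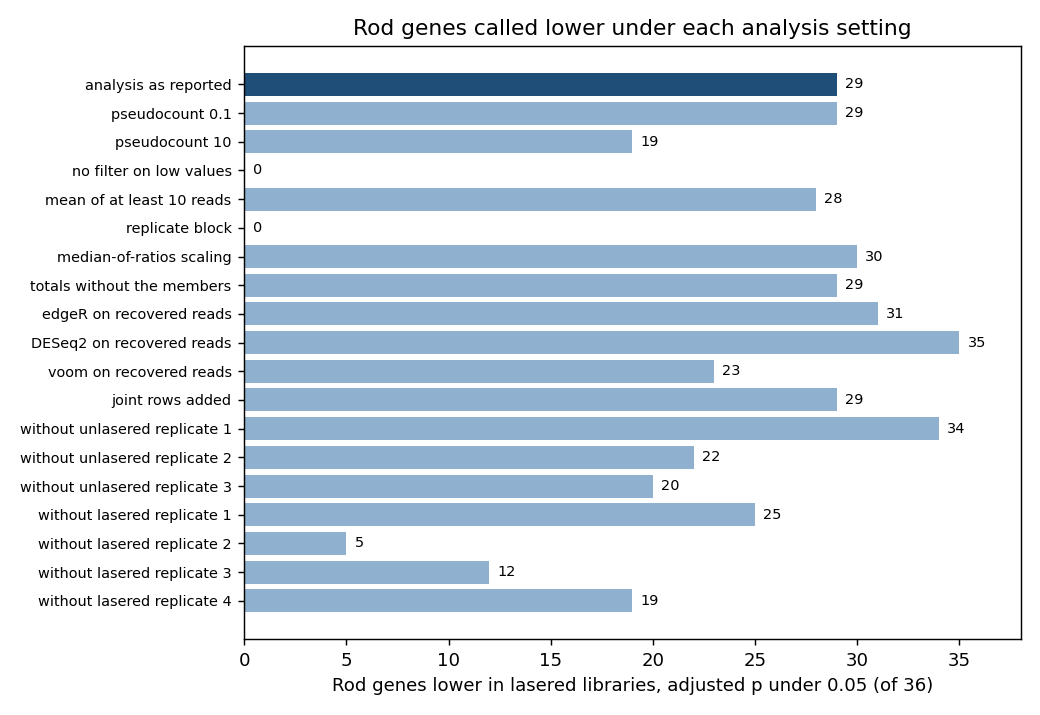
Number of the 36 members lower in lasered libraries at an adjusted p under 0.05 in the analysis as reported (dark bar, 29) and under each alternative (light bars). The bars run from 0 without a filter on low values and with the replicate block to 35 with DESeq2, and leaving out lasered library 2 gives 5.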

How the data were processed

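RNA-seq values of 7 libraries of sorted retinal microglia were analysed. The authors removed adapters with cutadapt and duplicate reads with FastUniq, aligned the rest with Bowtie2, and HTSeq gave the count for each gene. The submitters' processing notes name GRCm38. The methods call the deposited values TPM, but the deposited values are CPM: a single step per library divides its values, and 100% of values gave whole reads within 0.05 of a read. All value columns were mapped to a sample.

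Tests covered the 17496 genes that reached 1 CPM in 3 or more libraries, on log2(CPM + 1) with limma 3.58.1 (R 4.3.3; trend, robust, two-sided, Benjamini-Hochberg over all genes tested; no covariate). Log2 differences are on that scale and understate the change of low genes; values given as fold are ratios of mean CPM or of CPM between libraries. edgeR 4.0.16, DESeq2 1.42.0 and voom on the recovered reads were alternatives, with other pseudocounts, filters and scalings, joint entries of overlapping genes added, the replicate number as a block and each library left out. The procedure was run on simulated counts in which genes were independent and shared the same dispersion (spread between libraries). That setting does not match members that move together, so it does not show how reliable their calls are. Loci and exonic lengths are from GENCODE M21 and promoters from RefSeq. Pandas 2.3.3 and scipy 1.17.1 were used.

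The labels do not say whether pools of a group came from separate experiments, so p-values measure the spread between these libraries, which may be partly technical. The 36 members and the gene lists were chosen with earlier results of these data known. Named were all members, genes of the other lists that passed (a few are not reported here), and Opn1sw, Opn1mw, Rpe65, Glul, Cx3cr1, Tmem119 and Irf8; other genes (Gngt2, Pde6h, Supt16, Gpr152, Csf1r, Slc1a3, Car2, Slc6a9, Gnat2, Gnb3, Pde6c and Thrb) were named after their values were seen.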

Additional observations from a re-analysis of the deposited data

Results flagged for a closer look

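In 4 members 1 lasered library stood apart from the other 3 by more than Dixon's 95% limit for 4 samples. Slc24a1 was 22.7 CPM in lasered library 1, with a gap of 0.881 of the range to its nearest neighbour, and Grk1 was 9.52 CPM in the same library, with a gap of 0.856. Rorb was 1.65 CPM in lasered library 2, the highest value, with a gap of 0.862. Cabp4 was 0.348 CPM in lasered library 3, the lowest value, with a gap of 0.842. There were 37 values tested in this way, and chance flags about 1 in 20.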

How the results depend on the processing

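The difference was negative for every member tested under every alternative, and the count of higher members was 0 throughout. The count of lower members, 29 of 36 as reported (3.07% of all genes tested), was 19 with a pseudocount of 10 (1.61% of all genes). Without a filter on low values it was 0 (35 at an unadjusted p under 0.05), where 0.53% of the 40743 genes tested were lower. There the SE of Gnat1 was 0.94 in place of 0.75, and the lowest adjusted p of a member was 0.0503. The number of genes and the larger errors were not separated. With the replicate block it was 0 (35 at an unadjusted p under 0.05), where 1 gene of all was lower and 2 were higher. Deviations from the group means correlated at -0.18, -0.13 and -0.02 between same-numbered libraries. Between libraries of unlike number they correlated at -0.11 to 0.21. With so few libraries in each group these correlations cannot decide whether the numbers pair the samples. Leaving out 1 library at a time gave 5 to 34 lower members. The highest was without unlasered library 1 (2.39% of all genes lower) and the lowest without lasered library 2 (0.662%). Guca1b, Rorb, Rcvrn, Pde6g and Gngt1 were the 5 still called there. The count was 31 by edgeR (3.45% of all genes lower), 35 by DESeq2 (6.52%) and 23 by voom (2.34%). DESeq2 gave no adjusted p for 2310030A07Rik and called 1141 genes lower in all, against 537 as reported. The count was 30 with median-of-ratios scaling (2.82%), which moved the median of all genes from -0.01 to 0.06. It was 28 with a mean of at least 10 reads (2.15%). The summed level of the members was 5739.6 CPM as a median over unlasered libraries and 923 CPM over lasered libraries, and 4174 CPM in the unlasered group without library 2. Where not stated, the cause was not tested. With 3 against 4 libraries an exact test of a single gene cannot go below 0.057.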
